A study of Mus musculus with 4 samples.

Results

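Classical monocytes are described here in CD45-positive cells of MC38 tumours, as the cells that passed a gate on raw UMIs (unique molecular identifiers, 1 per captured transcript). A member had at least 300 detected genes and at most 15% mitochondrial UMIs. It also had at least 5 UMIs of Lyz2 and at least 2 of Ly6c2, no UMI of Arg1 or Ace, at most 1 of Rsad2 and fewer than 10 of C1qa, C1qb and C1qc together. Cells with Cd3e, Cd3d, Ncr1 or Cd79a, cells with more than 1 UMI of Cd209a or of Xcr1 and Clec9a, and cells with both Ccr7 and Fscn1 were left out. The gate held 2260 of the 32396 cells that passed the cell filter, 6.98%. The values of those genes chose the cells and are given below as description only.

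Monocytes are made in bone marrow, leave it through the chemokine receptor CCR2 and enter inflamed tissue and tumours from blood. Classical monocytes carry the surface protein Ly6C, encoded in part by Ly6c2, and express the genes of lysozyme and haptoglobin. In tissue they lose this program and become macrophages or antigen-presenting cells. Non-classical monocytes patrol the vessel wall and depend on the nuclear receptor NR4A1.

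MC38 is a mouse colon adenocarcinoma line, and 100000 cells were injected under the skin of mice aged 8 weeks. On day 16 the tumours were digested with collagenase, and the cells were frozen and thawed. The libraries are labelled as immune cells positive for CD45, the leukocyte surface marker, and the protocol does not describe how these were selected. Of the 4 libraries, 2 are labelled WT and 2 Ufl1 cKO, with treatment given as none in each. UFL1 is the enzyme that joins UFM1, a small protein related to ubiquitin, onto its targets. According to the title, Ufl1 was ablated in T cells. Neither a Cre line nor the deleted exons are named, so a deletion in the monocytes themselves is not stated. The labels do not say whether each library is a separate animal, so p-values measure the spread between these libraries alone.

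The members numbered 534 in WT replicate 1, 747 in WT replicate 2, 456 in cKO replicate 1 and 523 in cKO replicate 2. Their median depth was 8929, 8600, 9736.5 and 10243 UMIs per cell in that order, and their summed UMIs lay between 4478160 and 6457050 per library. Ufl1 in the members had 94, 104, 78 and 105 UMIs, that is 19.2, 16.1, 17.4 and 19.8 CPM (the gene's UMIs scaled by all UMIs of the summed cells), and the genotypes overlapped. With the deleted exons not named, this level checks no label. In cKO replicate 2 the members held 1159 UMIs of Xist and 0 of Ddx3y and Eif2s3y, whereas the other 3 libraries held at most 2 of Xist and at least 188 of Ddx3y. That library therefore stands apart in sex-linked transcripts within its own group. Of the cell barcodes, 85 to 104 occurred in both libraries of 5 of the pairs, but 479 in both WT replicate 1 and cKO replicate 2. Of these 479 barcodes, 14 were members in WT replicate 1 and 2 in cKO replicate 2, and the genotype test without them called 0 genes as well. Neutrophil marker genes summed to 148 and 467 CPM in the WT members and to 175 and 1132 CPM in the cKO members. None of the 11 was at 0 in all 4 libraries, but S100a9 was at 0 in WT replicate 1 and cKO replicate 1. Their part in the results was not tested. Erythroid genes summed to 86.6 CPM in WT replicate 2 and to at most 6.13 CPM in the others. The 11 T cell genes, 2 of them barred by the gate, summed to 13.5 to 19.7 CPM, against at least 3411 CPM in Cd3-positive cells.

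The promoters of 3 genes of the monocyte program are printed because they set the marker used in the gate, Ly6c2, beside genes the gate did not use, Mgst1 and Chil3. Each is the 250 bases before the RefSeq start site (build GRCm38.p6), 5′ to 3′ on the gene's strand. Capitals mark a match on either strand to 1 of 3 patterns: TTGCNNAA, as C/EBP factors bind; GAGGAAGT, as PU.1 binds; and GAAANNGAA, as interferon regulatory factors bind. The first listed start site of each gene was used, at chr15:75111972-75112221 (minus strand) for Ly6c2, chr6:138140277-138140526 (plus strand) for Mgst1 and chr3:106167565-106167814 (minus strand) for Chil3.
Ly6c2: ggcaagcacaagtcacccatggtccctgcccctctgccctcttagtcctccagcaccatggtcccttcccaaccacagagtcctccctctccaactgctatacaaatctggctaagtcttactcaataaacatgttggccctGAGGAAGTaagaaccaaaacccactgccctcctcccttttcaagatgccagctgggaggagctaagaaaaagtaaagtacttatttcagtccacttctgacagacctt
Mgst1: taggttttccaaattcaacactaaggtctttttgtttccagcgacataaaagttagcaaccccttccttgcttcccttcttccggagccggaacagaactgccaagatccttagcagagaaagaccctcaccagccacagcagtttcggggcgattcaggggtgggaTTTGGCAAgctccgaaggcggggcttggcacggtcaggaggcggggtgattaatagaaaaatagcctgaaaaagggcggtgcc
Chil3: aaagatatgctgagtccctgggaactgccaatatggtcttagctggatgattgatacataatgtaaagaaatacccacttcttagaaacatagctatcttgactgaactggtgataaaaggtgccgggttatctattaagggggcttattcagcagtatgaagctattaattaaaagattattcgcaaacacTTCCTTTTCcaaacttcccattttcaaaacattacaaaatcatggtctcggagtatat
Ly6c2 held the PU.1 pattern, Mgst1 the C/EBP pattern and Chil3 and Ccr2 the interferon regulatory factor pattern, each once. The second listed start site of Ly6c2 held the PU.1 pattern 2 times, the second of Mgst1 held no match, and neither listed start site of F13a1 held one. A match is a description of letters, not a site.

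Within the gate 3 monocyte markers outside the rule stood high at the level of sums. The list of such markers separated the members less from the nearer myeloid gates than from macrophages, as given below. The gene of haptoglobin (Hp), a haemoglobin-binding protein, stood at 493 and 598 CPM in the WT members and at 467 and 806 CPM in the cKO members. F13a1, the A subunit of coagulation factor XIII, stood at 449, 397, 353 and 508 CPM, WT libraries first and replicate 1 before replicate 2. Mgst1, a membrane glutathione transferase, stood at 255, 342, 293 and 349 CPM in the same order. These 3 genes were high in every library, and the genotypes overlapped for Hp, F13a1 and Mgst1.

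Their background in Cd3-positive cells of the same libraries was near zero. With each cell thinned to 3000 UMIs, which left out 12 to 35 members per library, Hp was detected in 50% to 70.3% of members and in 0% to 0.636% of Cd3-positive cells. F13a1 was detected in 43.8% to 54.7% of members and in 0.0796% to 0.82% of Cd3-positive cells, and Mgst1 in 39.5% to 53.3% and 0.137% to 0.636%. Unthinned, the shares of members were 63.9% to 80.9% for Hp, 58.1% to 67.5% for F13a1 and 57.5% to 70.9% for Mgst1. The median depth of Cd3-positive cells was 5489 to 6319 UMIs. Between 12.05% (95% Wilson interval 9.53% to 15.1%) and 17.98% (14.95% to 21.5%) of the members of a library held no UMI of any of the 3 genes, and 39.5% to 55.6% held all 3. Such intervals cover counting error only.

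Ly6c2 itself separated the members poorly from other cells. It stood at 2892, 3016, 3306 and 3876 CPM in the members and at 1882, 1413, 2307 and 3713 CPM in C1q-high macrophages. In the Arg1-positive cells it stood at 3266, 3113, 4811 and 7033 CPM, above the members of the same library in all 4. Cd3-positive cells held 1084 to 1636 CPM of Ly6c2. Of the distinct 60-base windows of Ly6c2 transcripts in GENCODE M21, 11.8% also occur in the neighbouring gene Ly6c1, so part of this signal may belong to either.

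**Figure D1:**
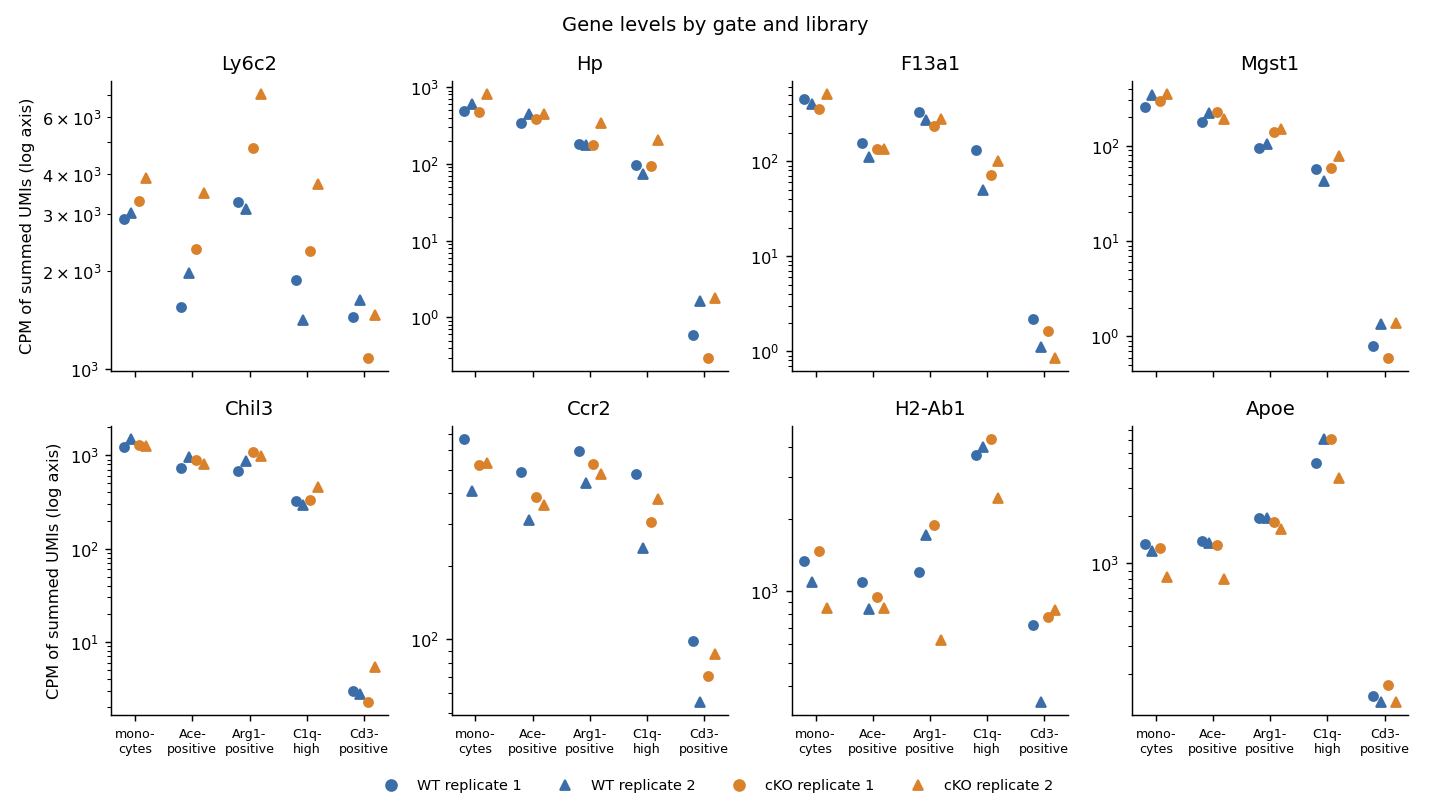
CPM of summed UMIs (log axis) of 8 genes in classical monocytes, 3 other myeloid gates and Cd3-positive cells; each point is 1 library, WT blue and cKO orange. Hp, F13a1 and Mgst1 stood at 255 CPM or more in the monocytes and at most at 2.17 CPM in Cd3-positive cells, while Ly6c2 lay between 1084 and 7033 CPM in all gates. Circles are replicate 1 and triangles replicate 2.

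Cells just inside and just outside the gate differed by amounts that depended on the term and the gene. The 109 members with exactly 2 UMIs of Ly6c2 had 218 CPM of Hp (median over libraries), and the 147 cells left out for having 1 UMI had 170 CPM, while F13a1 stood at 161 and 75.3 CPM in the same cells. Over all members the median of Hp was 545 CPM, against 264 CPM in the 115 cells left out for 1 UMI of Arg1. The Rsad2 term alone left out 1571 cells, the Ace term 1072, the C1q term 828 and the Arg1 term 246. The 254 cells left out with 2 UMIs of Rsad2, an interferon-induced antiviral enzyme, had 4083 CPM of Ly6c2 and 426 CPM of Hp, and the 495 members with 1 UMI had 3920 and 414 CPM.

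Beside C1q-high macrophages (at least 10 UMIs of C1qa, C1qb and C1qc, 5403 cells), the members held more of the coagulation and granule lists and less of the MHC class II and proliferation lists. Of the 7242 genes at 10 CPM or more in either gate, 100 (1.38%) were at least 2-fold higher in all 4 libraries and 177 (2.44%) at least 2-fold lower. The gate chose the cells in this contrast, so no test was made and the counts are read as description. A log2 difference below is the median over the 4 libraries of the difference in log2(CPM + 1), with the lowest and highest library.

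Granule genes were among the highest: of 7 described on the granule list, 5 were higher and 0 lower, Lyz2 of the rule included. Mmp8, a neutrophil-type collagenase, was higher by 2.64 (2.49 to 3.24) on the log2 scale, at 50.9, 67.4, 35.3 and 73.6 CPM in the members against 5.09 to 10.5 CPM in the macrophages. Lcn2, the iron-siderophore-binding lipocalin, was higher by 2.92 (2.47 to 3.14), at 21.7 and 66.4 CPM in WT and 20.8 and 105 CPM in cKO members. These are also genes of neutrophils. Lcn2, itself on the neutrophil marker list and so part of its sum, was highest in the 2 libraries with the most neutrophil marker UMIs. Mgst1 was higher by 2.22 (2.14 to 2.98), Hp by 2.32 (1.98 to 2.99), Pi16, a peptidase inhibitor, by 2.30 (2.26 to 2.93) and Slpi, the secretory leukocyte protease inhibitor, by 2.33 (1.68 to 2.90). Of the classical monocyte list, 12 of the 24 genes described were higher and 0 lower, among them Chil3, a chitinase-like lectin, at 1.95 (1.46 to 2.36), and Vcan, the matrix proteoglycan versican, at 1.92 (1.27 to 2.72). The chemokine receptor Ccr2 differed by less, 0.63 (0.48 to 0.78), at 669, 408, 524 and 532 CPM in the members. Of the trafficking receptor and adhesion list, 2 of 19 genes were higher, Itgb7 and Cd44, and 0 lower.

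Coagulation genes stood together beside the macrophages. Of the 12 described on the coagulation and fibrinolysis list, 9 were higher and 1 lower. F13a1 was higher by 2.30 (1.77 to 2.97). F5, coagulation factor V, was higher by 2.36 (2.30 to 2.97) at 17.8 to 28.1 CPM in the members. F10, coagulation factor X, was higher by 1.59 (1.28 to 2.41), Thbs1, the adhesive protein thrombospondin 1, by 1.58 (1.03 to 1.81) and Serpinb2, an inhibitor of plasminogen activators, by 2.02 (1.52 to 2.27). The single lower gene was Plau, which encodes the plasminogen activator urokinase. F13a1, Hp, Thbs1 and S100a10 stand on both this and the monocyte list.

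The lower side held macrophage genes outside the gate's C1q terms. Of the macrophage differentiation list, 14 of 29 genes were lower and 0 higher, 3 of the list being the C1q genes of the gate. Apoe, the lipid-carrying apolipoprotein E, stood at 1319, 1201, 1247 and 820 CPM in the members against 4309, 6130, 6131 and 3485 CPM in the macrophages, a difference of -2.19 (-2.35 to -1.71). Fcrls, a scavenger-like Fc receptor homologue, was lower by -5.39 (-6.41 to -5.02), Pf4, the chemokine platelet factor 4, by -4.40 (-5.04 to -3.80) and Cd63, a lysosomal tetraspanin, by -3.83 (-4.50 to -3.22). MHC class II genes were lower too, 4 of 9, with H2-Ab1 at -1.55 (-1.87 to -1.48) and the invariant chain Cd74 at -1.29 (-1.54 to -1.25). Of the proliferation list, 16 of 24 genes were lower, among them the topoisomerase Top2a at 4.70 to 6.04 CPM in the members against 22.2 to 43.7 CPM.

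**Figure D2:**
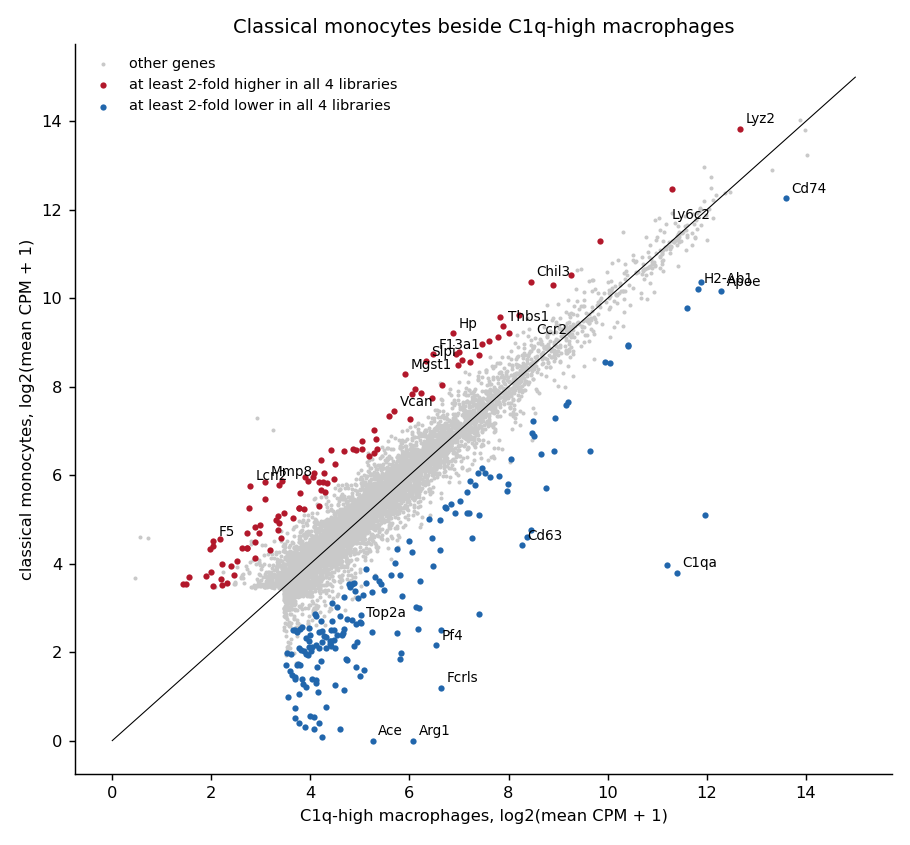
Mean CPM over the 4 libraries in classical monocytes (vertical) and in C1q-high macrophages (horizontal), both as log2(CPM + 1), 1 point per gene; coloured genes differed at least 2-fold the same way in all 4 libraries. Hp, F13a1, Mgst1 and Chil3 lie above the line, and C1qa, Arg1 and Ace, on which the cells were chosen, lie far below it.

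The other myeloid gates were closer to the members. Beside the 620 Arg1-positive cells, 21 of 7022 genes (0.299%) were higher and 45 (0.641%) lower. Of the classical monocyte list 2 of 24 genes were higher. The coagulation list held 3 of 13 higher and the granule list 1 of 7, with 0 lower in each list. Serpinb1a, an inhibitor of neutrophil serine proteases, was higher by 2.16 (1.94 to 2.34), Hp by 1.43 (1.22 to 1.77) and Mgst1 by 1.31 (1.06 to 1.69). F13a1 differed by 0.56 (0.45 to 0.87) and Chil3 by 0.57 (0.27 to 0.86). Ero1l, an oxidoreductase of the endoplasmic reticulum, and Bnip3, a mitophagy receptor, both induced by hypoxia, were lower by -1.28 (-2.07 to -1.11) and -1.68 (-2.37 to -1.08). Mmp12, the macrophage elastase, was lower by -2.30 (-2.64 to -1.97).

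Beside the 2508 Ace-positive cells, 16 of 6979 genes (0.229%) were higher and 44 (0.63%) lower. Higher genes were 2 of 24 on the classical monocyte list, 1 of 13 on the coagulation list and 3 of 7 on the granule list. Lower genes on these lists were 0, 1 and 0. Ace marks non-classical monocytes, and 9 of 19 genes of their list were lower in the members, Ace itself included. Eno3, a muscle-type enolase, was lower by -3.53 (-3.71 to -2.45), Adgre4, an adhesion G protein-coupled receptor, by -2.33 (-2.45 to -2.10), Ear2, an eosinophil-associated ribonuclease, by -2.07 (-2.47 to -1.90) and Spn, the sialophorin CD43, by -1.42 (-1.67 to -1.34). Nr4a1 did not follow, at 1465 to 1598 CPM in the members and 1617 to 2017 CPM in the Ace-positive cells. F13a1 was higher by 1.68 (1.38 to 1.90), Prtn3, the granule protease proteinase 3, by 1.73 (1.31 to 2.21) and Fn1, the matrix protein fibronectin, by 1.26 (1.02 to 1.45), while Hp differed by only 0.48 (0.30 to 0.84).

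The median interferon gene was lower in the members than in each of the 3 other gates, and this changed with a term of the rule. The rule holds Rsad2 at 1 UMI or less, and the other gates had no such cap. Without Rsad2, the median difference of the type I interferon list was -0.32 beside the macrophages, -0.78 beside the Arg1-positive and -0.59 beside the Ace-positive cells. With the cap placed on every gate the medians were 0.37, 0.05 and 0.09, and 1, 0 and 0 of 36 genes remained 2-fold lower in place of 6, 10 and 7. The cap was added after seeing the data. The classical monocyte list beside macrophages held 17 of 24 higher genes with the cap, and the macrophage list 15 of 29 lower. Beside the Arg1-positive cells the cap brought the count of genes that differed from 66 to 33.

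Among genes at least 2-fold higher than in the macrophages and not in the rule, 73 of 99 had a RefSeq promoter, and 21.9% of these held the C/EBP pattern in the 250 bases before the start. The share was 9.55% over all 27025 promoters and 8.03% over 137 promoters of the lower genes. The PU.1 pattern was held by 6.85%, 2.44% and 7.30% of the 3 sets, and the interferon regulatory factor pattern by 8.22%, 7.16% and 13.1%. These shares describe genes chosen on these libraries and carry no test.

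By variance-to-mean ratio the invariant chain Cd74 and the chemokine Cxcl2 ranked first among the members, followed by class II genes. The ratio was not adjusted for the level of a gene, and abundant genes can rank high by it. At 3000 UMIs per cell, the variance-to-mean ratio was ranked over 3295 genes by its lowest library. Random sampling alone gives a ratio near 1, the median over all ranked genes was 1.02, and 159 genes exceeded 2 in every library. Cd74 had a ratio of 44.6 to 54.1, H2-Aa of 18.4 to 23.9, H2-Ab1 of 18.3 to 25.5 and H2-Eb1 of 16.4 to 22.6. The neutrophil-attracting chemokine Cxcl2 had 27.0 to 32.6 and the lymphocyte-attracting chemokines Ccl4 and Ccl5 had 15.2 to 28.9 and 11.2 to 27.6. Others of the leading 15 were Fth1, the ferritin heavy chain, Apoe, the secreted phosphoprotein Spp1, Lars2, the immediate early gene Fos and the heat shock genes Hspa1a and Hspa1b, whose transcripts share 56.3% to 59.6% of their windows. Lyz2, a gene of the rule, was also among them.

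Members with many and with no MHC class II UMIs differed in the monocyte markers but little in Ly6c2. With 5 or more UMIs of H2-Aa, H2-Ab1 and H2-Eb1 at 3000 UMIs per cell, 22.99% and 21.96% of the WT members and 23.6% and 19.5% of the cKO members were class II-high, and the genotypes overlapped. No class II UMI was seen in 59.2%, 61.4%, 59.0% and 65.4%. In the same libraries 5.10% to 8.33% of Cd3-positive cells and 55.2% to 75.2% of C1q-high macrophages reached 5 UMIs. The median raw depth of class II-high members was 10021, 8921, 10787 and 11202 UMIs, and that of members with none 8819, 8881, 9403 and 10484.

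Class II-high members had lower levels of part of the classical monocyte list. Of 23 genes described outside the rule, 10 were at least 2-fold lower in all 4 libraries, 0 higher and 13 neither. Over all 4325 genes described, 47 were lower in this way. Hp stood at 110 to 193 CPM in them against 624 to 1076 CPM in members with no class II UMI, a log2 difference of -2.36 (-2.70 to -2.04) with 10 CPM added. F13a1 differed by -2.39 (-2.62 to -2.09), Mgst1 by -2.51 (-3.07 to -2.06) and Slpi by -3.11 (-3.73 to -2.74). Chil3 differed by -1.97 (-2.24 to -1.79), Vcan by -2.47 (-2.62 to -1.86) and Thbs1 by -1.31 (-1.75 to -1.25). Ly6c2 differed by -0.04 (-0.21 to 0.35) and Ccr2 by 0.20 (-0.02 to 0.23). The 7 genes named as lower were each at least 2-fold lower in all 4 libraries. For them the highest library of the class II-high members lay below the lowest library of the others. They were picked for such differences, so this adds no support.

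Of 4325 genes described, 37 were at least 2-fold higher in class II-high members in all 4 libraries and 47 at least 2-fold lower, the 37 including the 3 genes of the split. Higher genes held the machinery of class II itself, with Ciita, its transcriptional activator, at 2.33 (1.42 to 2.87) and H2-DMb1, a peptide-loading chaperone, at 3.23 (2.98 to 3.45). Others were Cxcl16, a membrane-bound chemokine, at 2.13 (1.92 to 2.34), Axl, a receptor for dying cells, at 1.88 (1.71 to 2.11), Itgax, the integrin CD11c, at 1.86 (1.48 to 1.99), and Cd72, an inhibitory lectin, at 2.57 (1.97 to 3.43). Apoe differed by 1.25 (0.80 to 1.46), Cx3cr1, the fractalkine receptor, by 0.78 (0.31 to 1.32) and C1qa by 0.51 (-0.02 to 1.10). Flt3, a receptor of dendritic cells and their precursors, stood at 8.33 to 21.1 CPM in class II-high members and differed by -0.07 (-0.39 to 1.13). A class cut from a count is a range and not a type, and the split was chosen on these libraries, so it carries no test. With cells of high doublet score left out, the difference of Hp was -2.44, of F13a1 -2.40 and of Mgst1 -2.48.

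**Figure D3:**
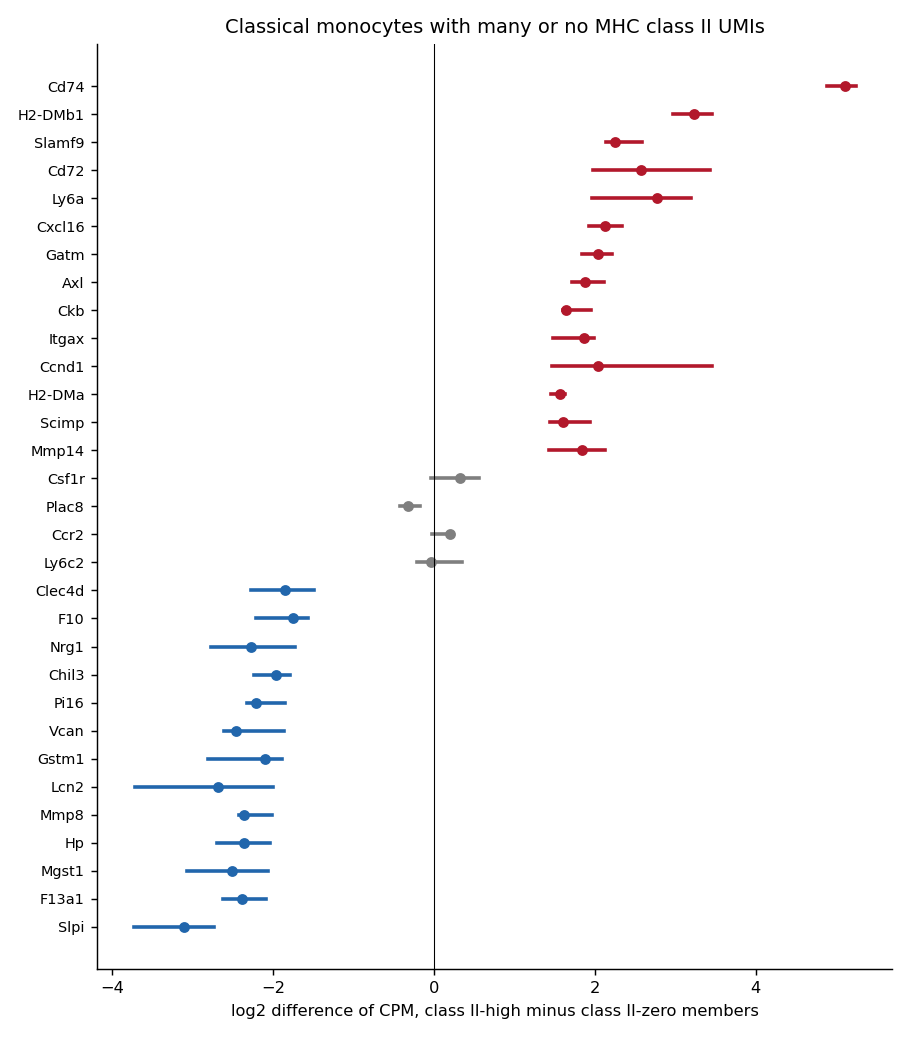
Log2 difference of CPM between members with at least 5 class II UMIs and members with none, 1 row per gene; the dot is the median and the line the range over the 4 libraries. Hp, Mgst1, F13a1 and other monocyte genes lie left of zero in every library, Ly6c2 and Ccr2 lie around zero, and Cd74 and H2-DMb1 lie to the right.

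The share of members among all cells was lower in both cKO libraries at the depth sequenced. This did not hold with cells thinned to 1 depth before the gate, which then held more cells. Members were 7.35% and 7.98% of the cells in WT and 5.87% and 6.54% in cKO. The means were 7.67% ± 0.449 (SD, n = 2) and 6.202% ± 0.475, a difference of -1.46 percentage points. The exact two-sided permutation test gave p = 0.333, the smallest that 2 against 2 libraries can give. Among Lyz2-positive myeloid cells the shares were 20.9% and 17.4% in WT and 14.9% and 17.5% in cKO, the genotypes overlapped, and the exact permutation p was 0.667. With cells thinned to 3000 UMIs first, and shallower cells left out, the gate held 737 and 1086 cells in WT and 737 and 930 in cKO. Its caps and zeros count UMIs, so thinning changes which cells pass. Members were then 11.995% and 13.9% of the remaining cells in WT and 11.1% and 13.9% in cKO. The genotypes then overlapped, and the difference was -0.45 percentage points (exact permutation p = 0.667). Among Lyz2-positive myeloid cells it was -0.039 points when thinned, from -2.91. Leaving out 1 library moved that myeloid difference between -1.13 (without WT replicate 1) and -4.68 points (without WT replicate 2). The selection for CD45 sets the denominator of every share, and none is a number of cells per tumour.

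**Figure D4:**
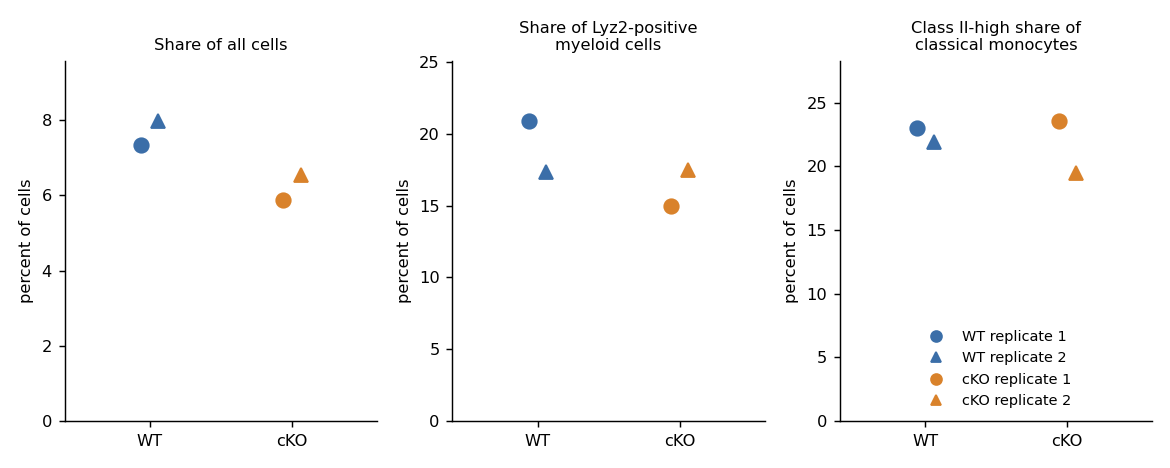
Classical monocytes as a percentage of all cells and of Lyz2-positive myeloid cells, and the class II-high share of classical monocytes, 1 point per library. Cells are counted at the depth sequenced; both cKO libraries lie below both WT libraries for the share of all cells, which did not hold with thinned cells, and the genotypes overlap for the other 2 shares.

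No gene passed the test between genotypes in the members. edgeR's quasi-likelihood test on UMIs summed per library called 0 of 9740 genes (0%) at a Benjamini-Hochberg adjusted p under 0.05, with 254 genes at an unadjusted p under 0.05. The smallest adjusted p was 1.00. DESeq2 called 1 gene, Xcl1, and limma-voom 0. The replicate number as a block called 5 genes. Leaving out a library changed the count: it was 23 with cKO replicate 1 left out, 6 with cKO replicate 2, 2 with WT replicate 1 and 0 with WT replicate 2. The 23 included Xist and Ddx3y and the neutrophil granule genes Camp, Ltf and Ngp. Both cKO libraries were higher than both WT libraries for 1484 genes (15.2%) and lower for 1360 (14%).

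Some of the leading differences were carried largely or in part by single cells. Xcl1, a chemokine of NK and CD8 T cells, stood at 9.82 and 5.996 CPM in WT and at 35.02 and 23.1 CPM in cKO after TMM scaling, a log2 fold change of 1.89 ± 0.29 (SE). Of its 154 UMIs in cKO replicate 1, 123 lay in 1 cell, and of its 127 in cKO replicate 2, 108 lay in 1 cell. No WT member held more than 2 of them. With cells of high doublet score left out, the fold change of Xcl1 was -0.67. Ifng, the cytokine of the same lymphocytes, had 9 and 3 UMIs in WT and 26 and 34 in cKO, with 13 and 12 of the latter in 1 cell each. In cKO, 13 and 21 members held a UMI of Ifng. Unlike Xcl1, its fold change stayed positive in 15 of 15 alternatives, at 1.59 or more. Of the 416 UMIs of the globin gene Hbb-bs in WT replicate 2, 408 lay in 1 cell, and of the 2607 UMIs of the calgranulin S100a9 in cKO replicate 2, 1246 lay in 1 cell.

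The other genes with the smallest p did not pass either. Cd81, a tetraspanin, stood at 35.9 and 34.8 CPM in WT and at 19.3 and 14.7 CPM in cKO, a log2 fold change of -1.06 ± 0.18 with an adjusted p of 1.00 in edgeR. Acod1, the enzyme that makes itaconate, stood at 20.04 and 22.04 against 39.8 and 35.4 CPM, 0.83 ± 0.16. The groups did not overlap for Cd81 or Acod1, as for 15.2% (cKO higher) and 14% (cKO lower) of all genes tested. The sign of both was the same in 15 of 15 alternatives. Both genes were named for their small p and the alternatives re-use the same libraries, so neither point is further support. Siglece, an inhibitory sialic acid receptor, had -0.62 ± 0.14, Matk, a Src-inhibiting kinase, -0.96 ± 0.18, C5ar1, the receptor for complement C5a, -0.82 ± 0.20 and Cd80, a costimulatory ligand, -0.58 ± 0.16. With the replicate block C5ar1 passed. Leaving out cKO replicate 1 brought Cd81 past the threshold. With no filter on low counts edgeR called 43 genes. Among them were Cd81 (adjusted p = 6.8e-05), C5ar1 (0.00112), Matk (0.00296) and Acod1 (0.00557). The sex-linked Xist and Ddx3y, the globin gene Hbb-bs, the neutrophil genes Camp, Ltf, S100a8 and S100a9, and Xcl1 and Ifng were called too.

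Interferon response genes leaned to the cKO libraries by small amounts. Of 37 type I interferon genes tested, 35 had a positive and 2 a negative log2 fold change, 0 passed, and the median was 0.22 against -0.0047 for all 9740 genes, of which 4777 were positive. Both cKO libraries lay above both WT libraries for 20 of the 37 and below for 1, beside 15.2% and 14% of all genes. Ifit2, an antiviral tetratricopeptide protein, stood at 43.9 and 57.5 CPM in WT and at 75.5 and 72.9 CPM in cKO, 0.54 ± 0.16, and Ifi44 at 4.41 and 4.54 against 9.32 and 9.63 CPM, 1.08 ± 0.27. Of 23 interferon gamma genes, 22 were positive with a median of 0.29, among them the immunity-related GTPases Iigp1 at 1.27 ± 0.37, Tgtp2 at 0.63 ± 0.20 and Irgm2 at 0.61 ± 0.23. Transcripts of Tgtp2 share 84.1% of their windows with Tgtp1. For MHC class I, 12 of 14 were positive with a median of 0.11, led by H2-Q7 at 0.56 ± 0.15.

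The lean of these lists kept its sign in every alternative run, with medians from 0.11 to 0.34 for type I, from 0.17 to 0.46 for interferon gamma and from 0.06 to 0.18 for class I genes. The alternatives re-use the same libraries, so a constant sign is no independent support. Some lists nearer zero kept their sign too, such as UFM1 conjugation (0.05) and coagulation (-0.04), while others turned. The gate's Rsad2 cap cuts the members on an interferon gene. The cells it left out were 9.08% and 10.3% of Lyz2-positive myeloid cells in WT and 10.8% and 18.9% in cKO. The genes of a list share their regulation and are not replicates, so their count is given without a test.

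Macrophage differentiation genes leaned the other way. Of 29 tested, 25 were negative and 4 positive, 0 passed and the median was -0.23, with the 3 C1q genes of the rule on the list. Cd81 and the lysosomal tetraspanin Cd63 (-0.71 ± 0.20) led, and Gpnmb, a lysosomal glycoprotein of lipid-laden macrophages, was positive at 1.12 ± 0.37. With cells thinned before the gate was applied, which changed the cells that passed, the median of the list was -0.0067. Without WT replicate 1 it was -0.07. The other alternatives lay between -0.30 and -0.16. The classical monocyte list had 9 positive and 16 negative of 25, median -0.06. Its smallest p belonged to Thbs1, at 904 and 639 CPM in WT and 629 and 470 CPM in cKO, -0.49 ± 0.21, and Ly6c2 had 0.25 ± 0.15. MHC class II genes split, 4 positive and 6 negative of 10.

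Genes of UFM1 conjugation differed little, while endoplasmic reticulum stress genes leaned slightly to the cKO libraries. Of 7 UFM1 conjugation genes, 5 were positive and 2 negative, with a median of 0.05, led by Cdk5rap3, an adaptor of the UFL1 complex, at 0.22 ± 0.17. Of 20 endoplasmic reticulum stress genes, 17 were positive with a median of 0.15, which ran from 0.05 to 0.24 over the alternatives. Hspa5, the chaperone BiP, stood at 792 and 772 CPM in WT and at 893 and 986 CPM in cKO, 0.27 ± 0.14, and no gene of either list passed. Oxidative phosphorylation genes had 10 positive and 22 negative of 32, median -0.05. Of 22 proliferation genes, 14 were negative, Rrm2 among them at 5.21 and 5.67 against 2.50 and 1.09 CPM.

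**Figure D5:**
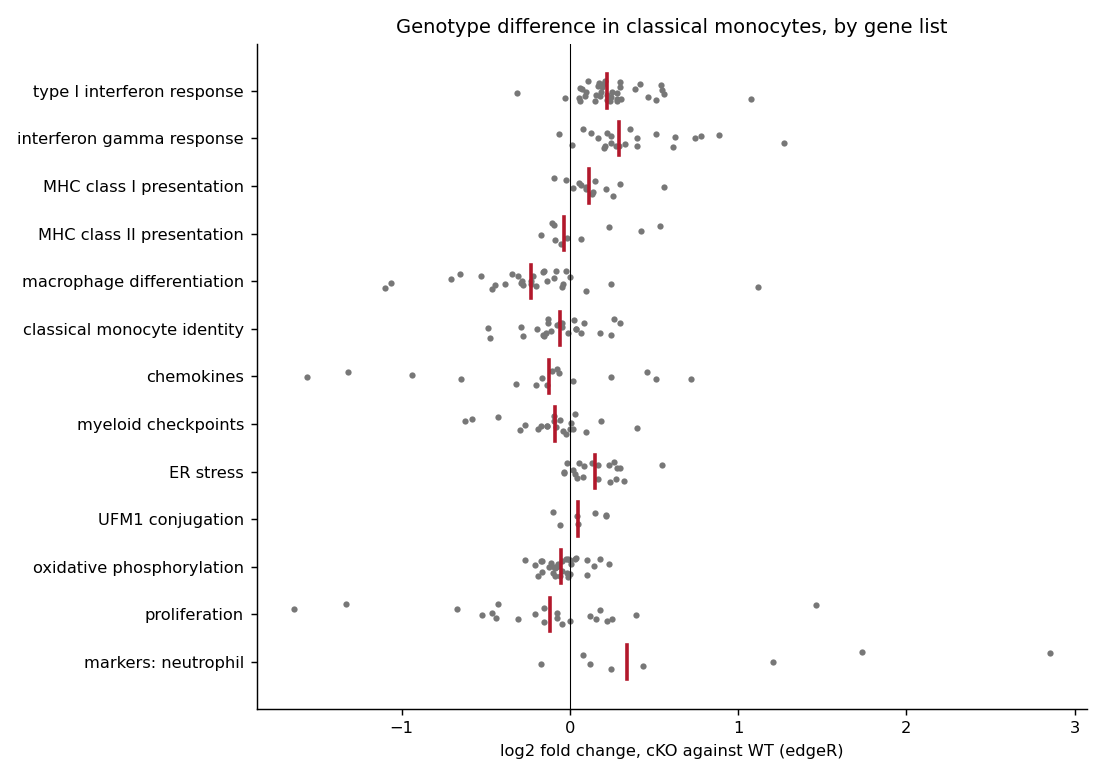
Log2 fold change of cKO against WT in classical monocytes (edgeR), 1 grey point per gene in 13 lists, with the median of each list in red. The 2 interferon lists lie mostly right of zero with medians of 0.22 and 0.29, and the macrophage list mostly left with a median of -0.23.

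The genotype difference in the members was not shown to differ from that in C1q-high macrophages. The interaction of gate and genotype called 0 of 10965 genes (0%) in edgeR, with 226 at an unadjusted p under 0.05, and DESeq2 called 1, Xcl1. The smallest adjusted p in edgeR was 0.103, for Xcl1, and the next was 0.123 for Ccl24, an eosinophil-attracting chemokine, at -3.43 ± 0.47. The fold change of Ccl24 was -1.56 in the members and 2.14 in the macrophages. In the members it ran from -3.01 to 1.16 over the alternatives and was positive without WT replicate 1 and with thinned cells, and the gene was detected in 0.42% to 1.15% of members at 3000 UMIs. Leaving out cKO replicate 1 gave 88 genes, cKO replicate 2 gave 18, WT replicate 2 gave 13 and WT replicate 1 gave 2. Within the macrophages alone and the Ace-positive cells alone edgeR called 0 genes, with 273 and 481 at an unadjusted p under 0.05, and within the Arg1-positive cells 7.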

How the data were processed

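CD45-positive cells of 4 MC38 tumour libraries, 2 WT and 2 cKO, were read by droplet single-cell RNA sequencing. Each deposited matrix gives unnormalised UMI counts, made with Cell Ranger 6.1.1 per the file headers; CASAVA 1.8 and Seurat are named in the submitters' processing notes. The genome build and annotation are not given in the sources used here. The libraries held 64141857 to 79747752 UMIs in 7352 to 9466 barcodes. Cells below 300 genes or above 15% mitochondrial UMIs were dropped, the gates were applied to raw counts, and counts were summed per library. The cells, gene lists and alternatives were chosen with earlier results of these data known.

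Genotype was tested on the sums with edgeR 4.0.16 (TMM, filterByExpr, quasi-likelihood, Benjamini-Hochberg over all genes, threshold 0.05), without a replicate block. The interaction fit held each library as a block. DESeq2 1.42.0 and limma 3.58.1 were alternatives. Shares were compared by exact permutation (scipy 1.17.1). Gates were described by log2 ratios with 1 CPM added, and members by cells thinned to 3000 UMIs (seed 1). Scrublet (scanpy 1.11.5) called 0 doublets and was judged not to have worked; an alternative removed the highest scores, at 0.8% per 1000 cells, which took 6 to 25 members per library. Both tests were run on simulated counts with 200 changed genes. The genotype test recovered 73% of 2-fold and 99% of 4-fold changes over 9749 genes, with 9 false calls. The interaction test recovered 30% and 97% over 10947 genes. Every simulated gene had the same dispersion, 0.0191, and only genes above a set mean count were changed. These rates therefore need not hold for the real counts.

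Genes were named by a rule: the genes of the gate and markers, up to 4 per list by the smallest p or the largest difference common to all libraries, the 8 smallest p in each direction, the 12 highest and lowest beside macrophages and 6 beside the other gates, and the 15 most variable. Slpi, F10, Thbs1, Plau, Top2a and Nr4a1 beside other gates, Ccl24, and the genes of the class II split and of single cells were chosen after their values were seen. Of 614 list genes, 608 were measured.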

Additional observations from a re-analysis of the deposited data

How the results depend on the processing

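Without a filter on low counts edgeR called 43 genes between genotypes and 14 for the interaction. With a replicate block it called 5 and 8, and DESeq2 called 1 and 1. Leaving out 1 library gave 0 to 23 and 2 to 88. The replicate block is given because the groups share replicate numbers; same-numbered libraries deviated with a correlation of 0.30 over 9740 genes, but there are only 2 pairs and the labels tie no number to a batch, so it is not read as a pairing. With a 4-fold in place of a 2-fold threshold, 52 genes differed from macrophages, 11 from Arg1-positive and 8 from Ace-positive cells, against 277, 66 and 60. With the Rsad2 cap in every gate, 33 differed from Arg1-positive cells. Why the counts moved was not tested. The share differences kept their sign in 10 of 10 alternatives each but not their size: with cells thinned before the gate they were -0.45 and -0.039 points in place of -1.46 and -2.91, and the genotypes overlapped. Leaving out 1 library gave -1.13 to -1.80 points for all cells and -1.13 to -4.68 for myeloid cells. In the class II split the count of 84 genes lay between 65 and 102. Alternatives with the Rsad2 cap, without the shared barcodes, and for the class II split and the variation were chosen after seeing the data. With 2 libraries a group, p-values for shares cannot fall below 0.333. A library left alone in its group was assumed to vary like the other group. At this depth, UMIs of a single cell made up most of the sum of Xcl1 in both cKO libraries.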

Other observations

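Members also differed in the chemokine Cxcl2, apart from the monocyte markers. At 3000 UMIs per cell, 27.2% and 15.5% of WT and 24.5% and 19.9% of cKO members had 5 or more UMIs of Cxcl2, and the genotypes overlapped. Beside members with none, 5 of 4210 genes were at least 2-fold higher in all 4 libraries and 0 lower. They were Cxcl2 itself, the related chemokines Cxcl1 at 2.68 (1.25 to 4.49) and Cxcl3 at 1.74 (1.25 to 2.20), the alarmin Il1a at 1.51 (1.11 to 2.02) and Tnfaip3, an inhibitor of NF-kB signalling, at 1.15 (1.03 to 1.27). Hp differed by 0.31 (-0.01 to 0.39) and F13a1 by -0.09 (-0.43 to 0.53), unlike in the class II split. Spp1 was detected in 22.8%, 12.6%, 16.6% and 12.3% of members and in 33.2%, 17.2%, 20.8% and 19.6% of C1q-high macrophages. Beside members without it, 3 of 4250 genes were at least 2-fold higher in all 4 libraries and 0 lower. Among the higher were the chemokine Ccl7 at 2.07 (1.36 to 2.72) and Dab2, an endocytic adaptor, at 1.23 (1.08 to 1.31).

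Members with a UMI of S100a8 or S100a9, the calgranulins of neutrophils and early monocytes, were 2.49% and 7.41% in WT and 2.72% and 13.3% in cKO. They numbered 13, 53, 12 and 65. In the same order of libraries, 0%, 0.279%, 0.137% and 4.22% of Cd3-positive cells held such a UMI. Among C1q-high macrophages it was 1.01%, 0.792%, 0.46% and 4.67%, so the background was also highest in cKO replicate 2. Beside members with none, 4 of 4421 genes were at least 2-fold higher in all 4 libraries and 25 at least 2-fold lower. Among the higher were Mmp8 at 1.62 (1.12 to 2.48), Lcn2 at 2.57 (1.69 to 3.70) and Padi4, which citrullinates histones, at 1.45 (1.18 to 1.53). Chil3 differed by 1.18 (0.92 to 1.66) and H2-Aa by -3.48 (-4.51 to -2.37). The part of these members in the library differences of granule genes was not tested.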
